A study of Mus musculus with 7 samples.

Results

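The genes described here are 32 members of the p53 pathway: Trp53, which encodes p53, its 3 inhibitors Mdm2, Mdm4 and Ppm1d, and 28 genes known as p53 targets. They were chosen by name from known genes of the pathway, with earlier results of these data known. Each matched 1 Ensembl gene of the 43629 in the count table. All 32 passed the filter on low counts, which left 18426 genes for testing. No library comes from cells that lack p53 or were treated to activate it, so that the list is one of known targets, and which of them depend on p53 in these cells was not tested.

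p53 is a transcription factor that is held low by the ubiquitin ligase Mdm2 and kept inactive by the related protein Mdm4. When DNA damage, oncogene activity or other stress weakens that hold, p53 accumulates, binds its response elements and raises genes that stop the cell cycle, repair DNA, adjust metabolism or start cell death, and also raises Mdm2 itself, which closes a feedback loop. Mouse ES cells hold much p53 while they divide fast and have a short G1 phase, and p53 is known to promote their exit from self-renewal.

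Poly(A) RNA was sequenced from 7 libraries of E14 mouse embryonic stem (ES) cells, of 129/Ola background, and their derivatives. Ago2-knockout ES cells, undifferentiated in 15% serum with LIF, gave 3 libraries (KO ESC C4, 5-3_1 and 5-3_2). Wild-type E14 cells (WT XEN A and B) and knockout cells (KO XEN C4 and 5-3) were differentiated for 5 days towards extra-embryonic endoderm (XEN) in 15% serum with activin A (10 ng/mL) and all-trans retinoic acid (0.1 µM). Ago2 is the Argonaute protein that can cleave RNAs paired with a microRNA or siRNA. C4 and 5-3 are the 2 knockout lines, and wild-type ES cells are not analysed here, so that in WT XEN against KO ESC genotype and differentiation cannot be told apart. Whether the libraries of a group stem from separate cultures is not stated, so that p-values measure only the spread between these libraries. Between libraries of the same cells that spread may be technical, and in the knockout groups it also includes the difference between lines. The 3 KO ESC libraries stem from 2 lines, and the fit took 5-3_1 and 5-3_2 as separate replicates. Across genes their log2 levels had a Pearson r of 0.995, beside 0.983 and 0.981 with C4.

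Total counts ran from 13941826 in KO XEN C4 to 48650113. Levels are given as CPM, the usual counts normalised to library size, here scaled by TMM (trimmed mean of M values). They can be compared between libraries for a gene, not between genes. Ago2 stood at 394 and 432 CPM in WT XEN, at 122 CPM in KO XEN C4 and 94.4 CPM in KO ESC C4, and between 9.37 and 9.94 CPM in the 5-3 libraries. Line C4 thus kept more Ago2 transcript than line 5-3 and less than WT XEN, and a count over the whole gene does not test the allele.

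The labelled cell types were checked on marker lists, whose summed CPM separated the groups, except that WT XEN and KO ESC overlapped for neural markers. The 9 naive ES cell markers summed to 3993 to 4078 CPM in KO ESC, to 552 and 559 CPM in WT XEN and to 125 and 158 CPM in KO XEN. The 12 extra-embryonic endoderm markers summed to 393 to 401 CPM in KO ESC, to 39067 and 57395 CPM in WT XEN and to 6426 and 7789 CPM in KO XEN. Most of the sum in KO XEN C4 and 5-3 came from Sparc (4746 and 5256 CPM) and Col4a1 (1120 and 1493 CPM). By edgeR's test 11 of the 12 were lower in KO XEN against WT XEN (adjusted p below 0.05), beside 23.9% of all genes. All 12 were lower in both KO XEN libraries than in either WT XEN library, as were 38.3% of the 18426 genes tested. Against KO ESC, 8 of the 12 were called higher in KO XEN and none lower, beside 34.8% and 34.3% of all genes. Sox7 (1.52 and 3.11 CPM in KO XEN), Amn (0.290 and 1.66 CPM), Cubn (8.64 and 88.5 CPM) and Lama1 (116 and 300 CPM) overlapped KO ESC. The 7 fibroblast and smooth muscle markers summed to 27.0 to 28.2 CPM in KO ESC, to 1784 and 775 CPM in WT XEN and to 10135 and 12448 CPM in KO XEN, mostly from Acta2, Tagln, Col1a1 and Col3a1. In KO XEN against WT XEN 5 of the 7 were called higher, Thy1 was not called, and Col1a2 was lower (212 and 57.9 CPM in WT XEN, 28.5 and 36.0 CPM in KO XEN). KO XEN also had the most neural marker RNA (6 genes, 458 and 530 CPM, against 58.1 to 108 CPM elsewhere), of which Nes gave 425 CPM in C4 and 331 CPM in 5-3, and mitochondrial transcripts held 0.781% and 0.979% of its counts against 1.94% to 3.26% elsewhere. Markers of blood and endothelium (5 genes) summed to 23.9 to 44.4 CPM in XEN libraries and 83.2 to 108 CPM in KO ESC. No listed marker was at 0 in every library. In bulk RNA, fewer cells of a type and less RNA per cell cannot be told apart. The KO XEN libraries thus had less RNA of endoderm markers and more of most fibroblast and smooth muscle markers than WT XEN, and the part of these differences in the results that follow was not tested.

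Genes were called where edgeR's quasi-likelihood test gave a Benjamini-Hochberg adjusted p below 0.05 over all 18426 genes, and log2 fold changes are given ± SE. Groups of so few libraries often do not overlap, so that separation alone does not set a gene apart. In KO XEN against WT XEN, 38.2% of all genes tested were higher without overlap and 38.3% lower. The shares were 39.8% and 41.2% in KO XEN against KO ESC, and 38.4% and 37.7% in WT XEN against KO ESC. After the same differentiation, p53 pathway genes were more often higher than lower in knockout cells: of the 32, 16 were higher and 5 lower in KO XEN than WT XEN, and 11 were not called. The background is large, since 46.2% of all genes were called there, 22.3% as higher and 23.9% as lower. The median log2 fold change of the 32 genes was 0.63, beside 0 over all genes tested, and it was 0.32 when only genes with at least 10 CPM in 2 libraries were tested.

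The undifferentiated knockout cells give the second reference. In KO XEN against KO ESC, 16 of the 32 were higher, 4 lower and 12 not called, with a median log2 fold change of 0.48 beside −0.08 over all genes. Here 69.0% of all genes were called, 34.8% as higher and 34.3% as lower. The count of 16 fell to 10 without KO XEN C4. In WT XEN against KO ESC, where 62.5% of all genes were called (32.2% higher, 30.3% lower), 11 of the 32 were higher and 9 lower, and the median was −0.12 beside −0.03. Those 9 became 5 without WT XEN B, and the median then turned to 0.02. The first pair of comparisons share the KO XEN libraries and the last pair the KO ESC libraries, so that their counts are not independent of each other.

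**Figure D1:**
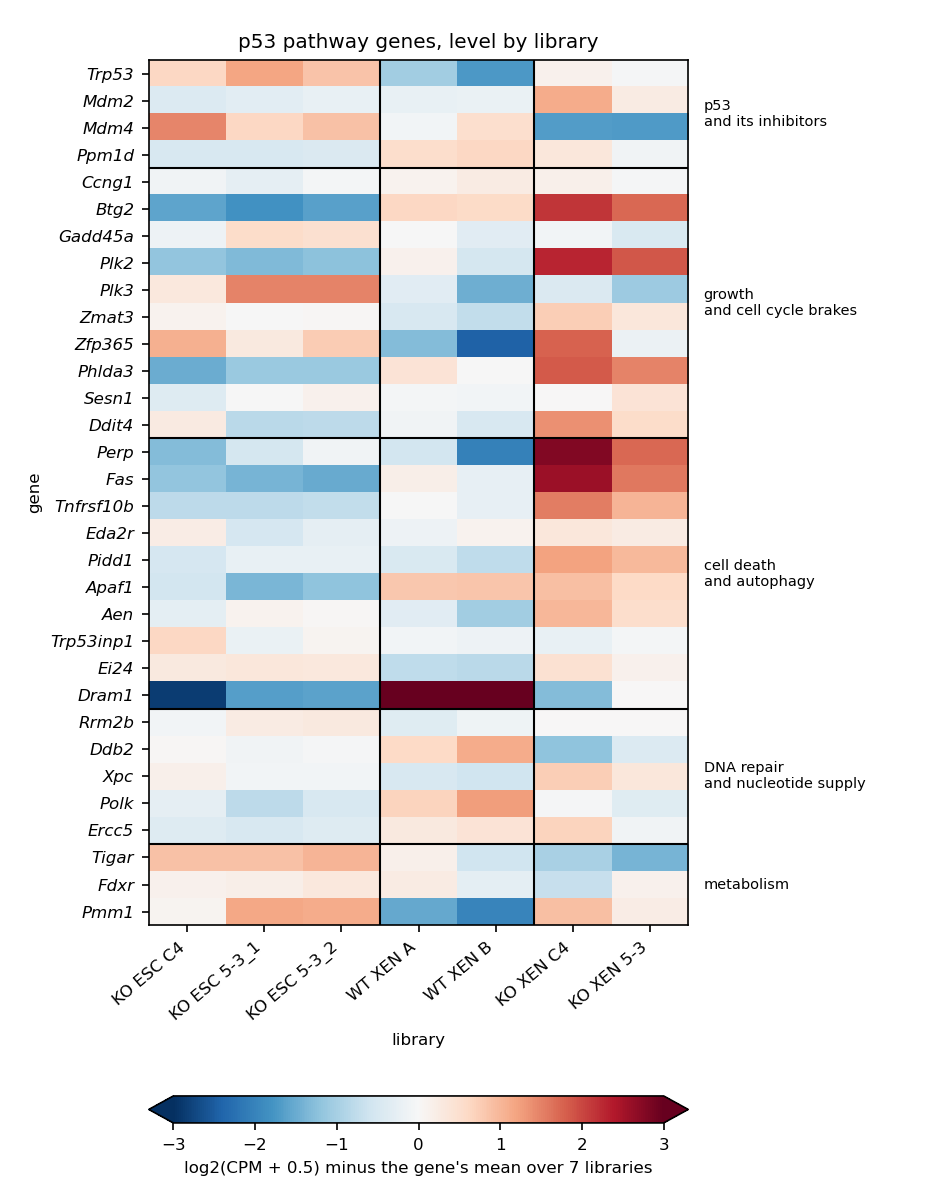
Level of each of the 32 genes (rows, grouped by role) in each of the 7 libraries (columns), as log2(CPM + 0.5) minus the gene's mean over the libraries; red is above and blue below that mean, and arrows on the colour bar mark values past its ends. The KO XEN columns are red for Btg2, Plk2, Phlda3, Perp and Fas, the WT XEN columns for Dram1, and the KO ESC columns for Mdm4, Plk3 and Tigar.

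Promoter windows show where p53-like sequence lies close to the start of these genes. RefSeq windows (GRCm38.p6, 250 bases before to 50 after an annotated start, of which a gene can have several, some inside the gene) were found for 25 of the 32 genes. Each was searched on both strands for an exact p53 half-site (10 bases; the consensus reads alike on both strands) and for a full element of 2 half-sites up to 13 bases apart with at most 2 mismatches and both cores intact; a half-site can be part of a full element. An exact half-site lay in the windows of 9 of the 25 genes (36.0%), against 9.55% of 27025 genes with a window, and a full element in 2 of the 25 (8.0%), against 2.47%. The 9 are Trp53, Mdm2, Ppm1d, Ccng1, Gadd45a, Sesn1, Aen, Ei24 and Polk. Among genes that differed most in the data, the windows of Btg2, Plk2, Phlda3, Fas and Pidd1 held neither. These matches are letters in a window and say nothing of binding, and the window is short: the known p53 elements of Mdm2 and Fas, for instance, lie in introns.

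Of these stretches 6 are shown, each 80 bases long, 5′ to 3′ on the gene's strand, with the matched half-sites in capitals; they cover p53, its inhibitors Mdm2 and Ppm1d, the abundant Ccng1, and both full elements.
Trp53: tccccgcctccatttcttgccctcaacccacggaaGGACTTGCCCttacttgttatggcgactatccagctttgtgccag
Mdm2: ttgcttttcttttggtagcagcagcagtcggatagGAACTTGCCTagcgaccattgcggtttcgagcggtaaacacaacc
Ppm1d: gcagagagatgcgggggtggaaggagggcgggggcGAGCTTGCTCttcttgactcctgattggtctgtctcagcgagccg
Ccng1: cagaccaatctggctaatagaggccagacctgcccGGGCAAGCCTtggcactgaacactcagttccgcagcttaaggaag
Sesn1: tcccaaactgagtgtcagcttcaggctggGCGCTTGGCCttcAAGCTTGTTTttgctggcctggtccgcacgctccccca
Zfp365: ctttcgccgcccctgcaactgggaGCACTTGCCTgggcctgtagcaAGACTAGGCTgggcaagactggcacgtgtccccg
They lie at chr11:69580249-69580328 (plus strand) for Trp53, chr10:117710900-117710979 (minus) for Mdm2, chr11:85311087-85311166 (plus) for Ppm1d, chr11:40755427-40755506 (minus) for Ccng1, chr10:41887224-41887303 (plus) for Sesn1 and chr10:67912692-67912771 (minus) for Zfp365. The capitals begin 75 bases before the annotated RefSeq start in Trp53, 186 in Mdm2, 132 in Ppm1d, 185 in Ccng1, 186 in Sesn1 and 85 in Zfp365. The RefSeq start used for Sesn1 lies inside the GENCODE span of the gene (chr10:41809935-41908424), not at its end, so that this stretch is not upstream of every transcript. The half-sites of the full element are 3 bases apart in Sesn1 and 12 in Zfp365, each with 2 mismatches in all.

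Trp53 (ENSMUSG00000059552, chr11:69580359-69591873, plus strand) was highest in undifferentiated cells. Its level was 314, 465 and 374 CPM in KO ESC C4, 5-3_1 and 5-3_2, 99.9 and 62.4 CPM in WT XEN A and B, and 224 and 202 CPM in KO XEN C4 and 5-3. The groups did not overlap: KO ESC was high, KO XEN lay between and WT XEN was low. Trp53 was higher in KO XEN than in WT XEN (log2 fold change 1.39 ± 0.26, with adjusted p = 0.00393) and lower in both XEN groups than in KO ESC (−0.85 ± 0.24, adjusted p = 0.0141, for KO XEN, and −2.24 ± 0.26, adjusted p = 0.000184, for WT XEN). The call of KO XEN against KO ESC was lost without either KO XEN library (adjusted p = 0.0525 without C4 and 0.0744 without 5-3), whereas the log2 fold change stayed between −1.07 and −0.73 over the 17 alternatives.

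Mdm2 (ENSMUSG00000020184, chr10:117688875-117710758, minus strand) was high in KO XEN, and mostly in 1 of its libraries. It stood at 158, 168 and 181 CPM in KO ESC, at 180 and 181 CPM in WT XEN, and at 452 CPM in KO XEN C4 and 247 CPM in KO XEN 5-3. Both KO XEN libraries lay above all others, and the WT XEN values lay within or at the edge of the KO ESC range. The log2 fold change was 0.95 ± 0.26 against WT XEN (adjusted p = 0.0184) and 1.05 ± 0.23 against KO ESC (adjusted p = 0.0041). The first was lost in 5 of 17 alternatives, among them those without KO XEN C4 (0.45, adjusted p = 0.0986), without WT XEN A (0.85, adjusted p = 0.0718) or without WT XEN B (0.95, adjusted p = 0.082). Against KO ESC the call held in all 17 alternatives, with a log2 fold change of 0.51 to 1.34.

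Mdm4 (ENSMUSG00000054387, chr1:132959484-133030561, minus strand) went the other way. Its level was 762, 427 and 506 CPM in KO ESC, 260 and 393 CPM in WT XEN, and 85.4 and 84.5 CPM in KO XEN. Every KO XEN library lay below every WT XEN library, and those below every KO ESC library. KO XEN was lower than WT XEN by 3.84-fold (log2 fold change −1.94 ± 0.31, adjusted p = 0.00172) and lower than KO ESC by 6.65-fold (−2.73 ± 0.30, adjusted p = 0.0001), and both calls held in all 17 alternatives. The decrease from KO ESC to WT XEN was smaller (−0.79 ± 0.28, adjusted p = 0.0355) and was lost without KO ESC C4 (−0.53, adjusted p = 0.0638), without WT XEN A (−0.49, adjusted p = 0.236) or without KO XEN C4 (−0.79, adjusted p = 0.0541).

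Ppm1d encodes Wip1, a phosphatase that removes activating phosphates from p53 and its kinases. It stood at 30.8, 30.6 and 31.4 CPM in KO ESC, 62.0 and 66.6 CPM in WT XEN, and 54.6 and 39.9 CPM in KO XEN. Both XEN groups lay above KO ESC, with a log2 fold change of 1.06 ± 0.17 (adjusted p = 0.000877) for WT XEN and 0.61 ± 0.17 (adjusted p = 0.0118) for KO XEN. The latter was lost without KO XEN C4 (0.37, adjusted p = 0.124) or without KO ESC 5-3_2 (0.53, adjusted p = 0.0594). Between the XEN groups Ppm1d was not called (−0.45 ± 0.18, adjusted p = 0.0801), but it passed without KO XEN C4 (−0.69, adjusted p = 0.0425) or without KO ESC C4 (−0.52, adjusted p = 0.0442).

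**Figure D2:**
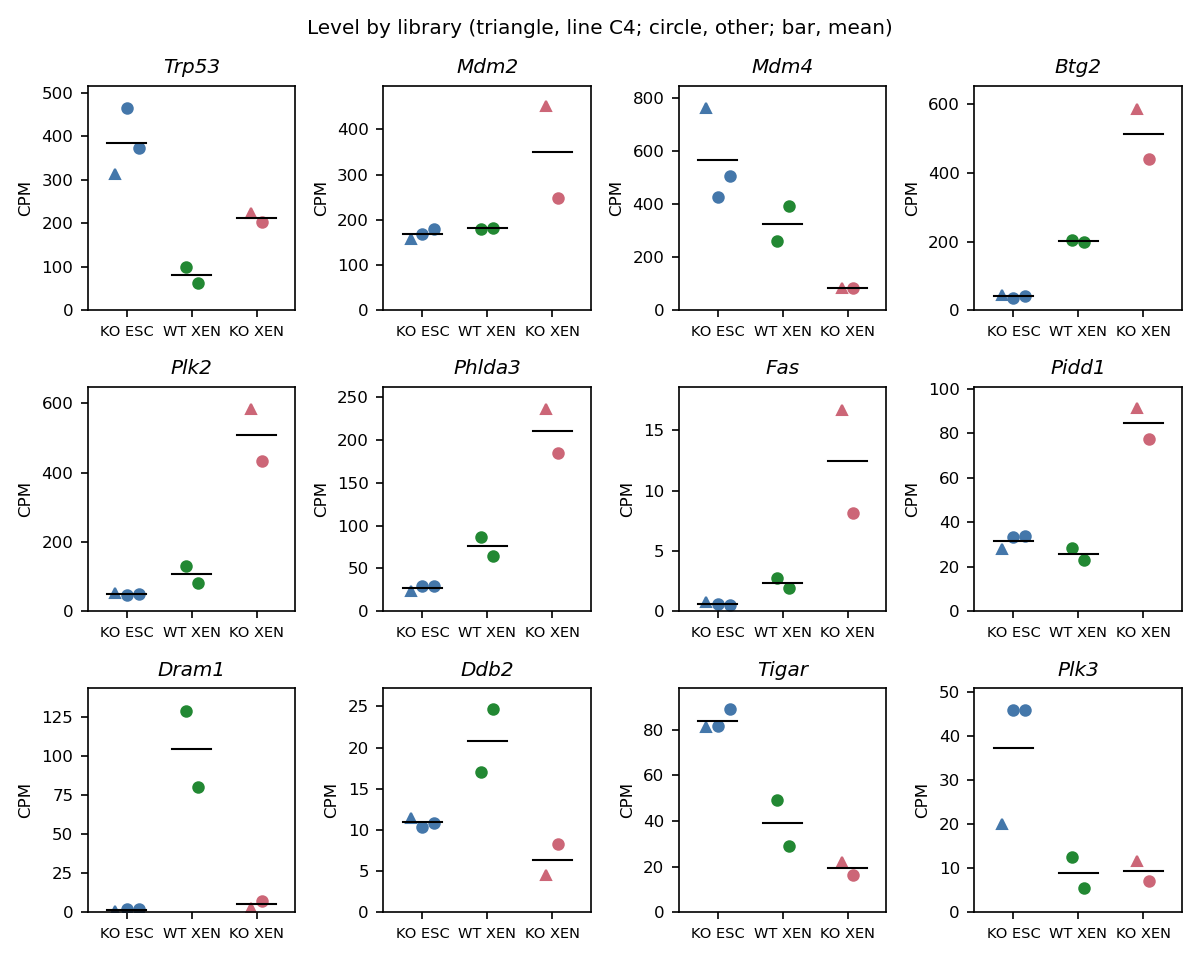
Level in CPM of 12 p53 pathway genes in each library (1 point per library; bar, group mean; triangles, line C4; vertical axes start at 0 and differ between panels). Btg2, Plk2, Phlda3, Fas and Pidd1 are highest in both KO XEN libraries, Dram1 and Ddb2 in WT XEN, and Trp53, Mdm4, Tigar and Plk3 in KO ESC.

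The group of growth and cell cycle brakes is a loose one of 10 genes, whose roles differ as given below. Of these 10, 6 were higher in KO XEN than in WT XEN and none was lower, beside 22.3% and 23.9% of all genes. Against KO ESC 5 were higher and 1 lower in KO XEN, beside 34.8% and 34.3%. Btg2, an antiproliferative protein that recruits mRNA deadenylases, stood at 43.9, 37.4 and 42.5 CPM in KO ESC, 205 and 198 CPM in WT XEN, and 587 and 441 CPM in KO XEN (chr1:134075170-134079120, minus strand). The groups formed 3 separate steps. Btg2 was 2.55-fold higher in KO XEN than in WT XEN (log2 fold change 1.35 ± 0.18, with adjusted p = 0.000845) and 12.5-fold higher than in KO ESC (3.64 ± 0.17, adjusted p = 1.99e-06). WT XEN was also above KO ESC (2.29 ± 0.16, adjusted p = 1.84e-05).

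Plk2, a polo-like kinase that acts in centriole duplication, followed the same order (chr13:110395046-110400844, plus strand). Its level was 51.8, 47.6 and 50.4 CPM in KO ESC, 131 and 82.8 CPM in WT XEN, and 582 and 433 CPM in KO XEN. KO XEN lay above WT XEN without overlap, by 4.75-fold (log2 fold change 2.25 ± 0.25, adjusted p = 0.000409), and above KO ESC by 10.2-fold (adjusted p = 8.12e-06). WT XEN was higher than KO ESC by 1.10 ± 0.21 on the log2 scale (adjusted p = 0.00267).

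Phlda3, a pleckstrin-homology protein that restrains Akt, was at 23.2, 30.1 and 29.9 CPM in KO ESC, 86.8 and 65.0 CPM in WT XEN, and 235 and 185 CPM in KO XEN (chr1:135766119-135769136, plus strand). Again no library of a group reached another group's range. The log2 fold change was 1.47 ± 0.22 in KO XEN against WT XEN (adjusted p = 0.00136), 2.92 ± 0.20 against KO ESC (adjusted p = 9.25e-06) and 1.45 ± 0.19 in WT XEN against KO ESC (adjusted p = 0.00039). All 9 calls of Btg2, Plk2 and Phlda3 held in the 17 alternatives.

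Zmat3, a zinc finger protein that binds RNA, stood at 283, 262 and 270 CPM in KO ESC, 188 and 159 CPM in WT XEN, and 441 and 333 CPM in KO XEN. Here WT XEN was the low group and KO XEN the high one, without overlap. The excess of KO XEN over WT XEN (log2 fold change 1.16 ± 0.18, with adjusted p = 0.0016) held in all alternatives. That over KO ESC (0.51 ± 0.16, adjusted p = 0.0212) was lost in 7 of 17, among them the fits without KO XEN C4 (0.30, adjusted p = 0.186) and without each KO ESC library (0.42 to 0.45, with adjusted p = 0.0543 without C4, 0.0782 without 5-3_1 and 0.108 without 5-3_2). The decrease from KO ESC to WT XEN (−0.65 ± 0.16, adjusted p = 0.00946) was lost without WT XEN B (−0.53, adjusted p = 0.0648).

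Zfp365, whose human counterpart helps keep the genome stable, was at 38.7, 22.5 and 31.3 CPM in KO ESC, 7.10 and 2.96 CPM in WT XEN, and 62.9 and 16.03 CPM in KO XEN. The KO XEN libraries lay on either side of the KO ESC range, and both were above WT XEN. KO XEN was higher than WT XEN (log2 fold change 2.96 ± 0.67, adjusted p = 0.0086), but not without WT XEN B (2.46, adjusted p = 0.0625) or without both C4 libraries (1.67, adjusted p = 0.0542). Against KO ESC, WT XEN was lower (−2.62 ± 0.63, adjusted p = 0.0076), again not without WT XEN B (−2.11, adjusted p = 0.0582).

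Ddit4, an inhibitor of the growth kinase complex mTORC1, stood at 58.8, 28.0 and 28.0 CPM in KO ESC, 45.6 and 34.8 CPM in WT XEN, and 128 and 71.4 CPM in KO XEN. In ES and in XEN cells alike the C4 library was the higher one, and KO XEN lay above both other groups. The log2 fold change was 1.31 ± 0.43 against WT XEN (adjusted p = 0.0364) and 1.38 ± 0.38 against KO ESC (adjusted p = 0.0115). Without KO XEN C4 neither passed (0.83, adjusted p = 0.219, and 0.91, adjusted p = 0.113), and the first was lost also without WT XEN A (1.43, adjusted p = 0.0835) or B (1.12, adjusted p = 0.182).

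Plk3, a polo-like kinase of the stress response, went against Plk2. Its level was 20.02, 45.8 and 45.9 CPM in KO ESC, 12.5 and 5.47 CPM in WT XEN, and 11.5 and 7.23 CPM in KO XEN. Both XEN groups lay below KO ESC and overlapped each other. Plk3 was lower than in KO ESC by −2.0 ± 0.50 on the log2 scale in KO XEN (adjusted p = 0.00732) and by −2.05 ± 0.49 in WT XEN (adjusted p = 0.00726). The first was lost without KO XEN 5-3 (−1.77, adjusted p = 0.0591) and the second without WT XEN B (−1.57, adjusted p = 0.0503). An exon of Plk3 overlaps Tctex1d4 on the other strand, and the strand setting of the counting is not given in the sources used here, so that its counts are uncertain. The same holds for Gadd45a, Ei24, Ddb2 and Tigar, which overlap other genes on the opposite strand.

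The other 3 genes of the brakes group were called in none of the comparisons. They are Ccng1, a cyclin that acts through Mdm2, Gadd45a, a stress protein that binds the replication clamp, and Sesn1, an inhibitor of mTORC1. Their log2 fold changes lay between −0.11 and 0.31 in KO XEN against WT XEN and between −0.59 and 0.30 in KO XEN against KO ESC. Ccng1 was among the most abundant of the 32 genes in every group (427 to 611 CPM over the 7 libraries), and Sesn1 was low throughout (13.1 to 23.1 CPM). Gadd45a was called lower in KO XEN than in KO ESC in 4 of 17 alternatives, among them without KO ESC C4 (−0.88, adjusted p = 0.00564, against −0.59, adjusted p = 0.0694, with it). It was called lower in WT XEN than in KO ESC in 2, among them without that library (−0.71, adjusted p = 0.0148, against −0.50, adjusted p = 0.12).

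**Figure D3:**
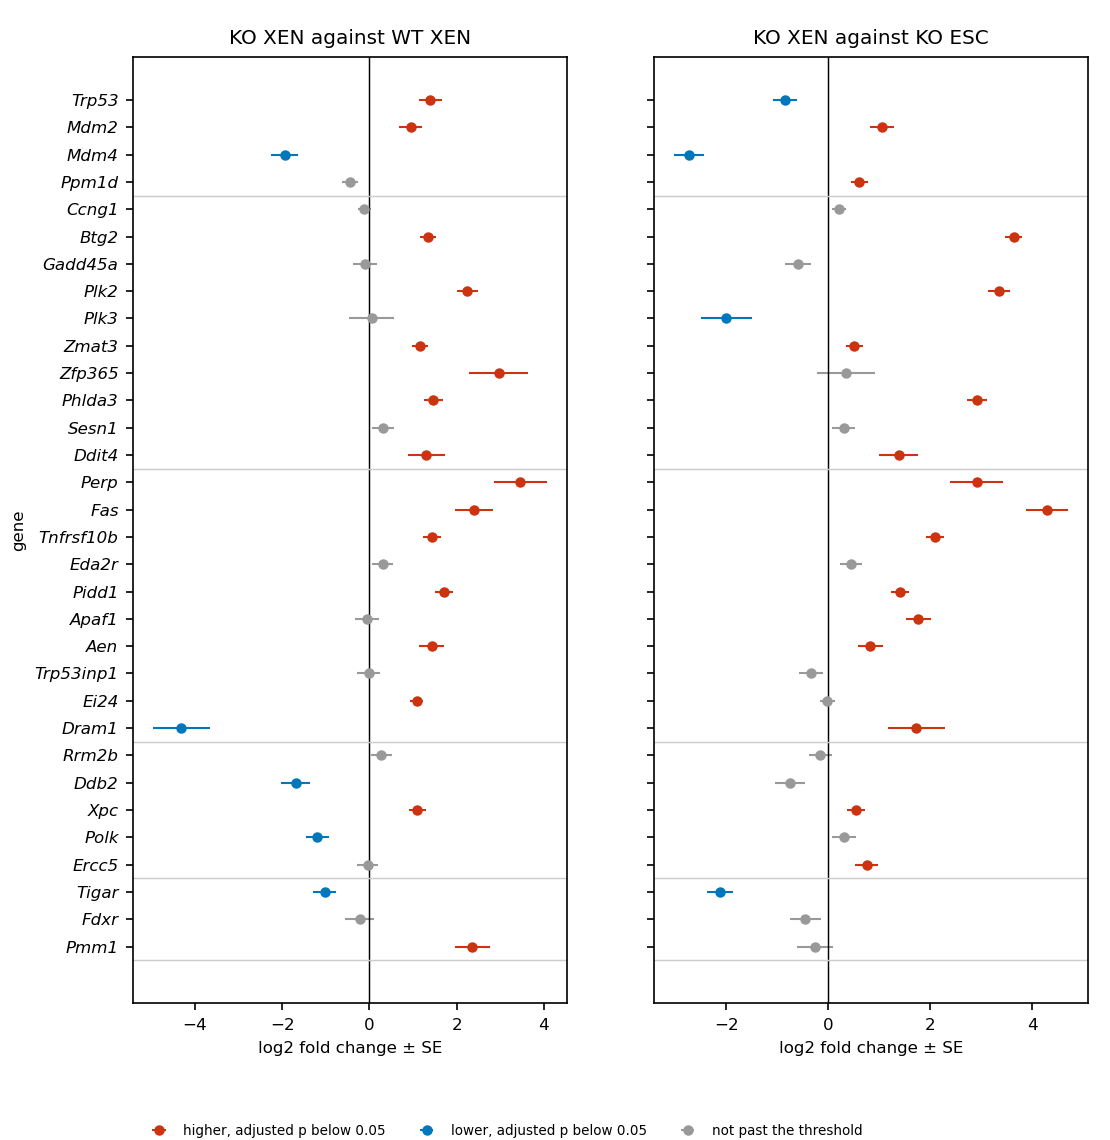
Log2 fold change ± SE of each of the 32 genes in KO XEN against WT XEN (left) and KO XEN against KO ESC (right), from the edgeR fit of all 7 libraries; red, called higher; blue, called lower; grey, not past the threshold. Dram1 is at −4.31 on the left and 1.73 on the right, and Fas is at 2.4 and 4.29.

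Among the 10 genes of cell death and autophagy, 6 were higher and 1 lower in KO XEN than WT XEN (all genes, 22.3% and 23.9%), and 7 were higher and none lower than in KO ESC (34.8% and 34.3%). Fas, the death receptor of that name (chr19:34290666-34327772, plus strand), stood at 0.768, 0.600 and 0.520 CPM in KO ESC, 2.74 and 1.94 CPM in WT XEN, and 16.7 and 8.18 CPM in KO XEN. The 3 groups did not overlap. Fas was 5.29-fold higher in KO XEN than in WT XEN (log2 fold change 2.4 ± 0.44, with adjusted p = 0.00327) and 19.6-fold higher than in KO ESC (4.29 ± 0.41, adjusted p = 4.58e-05), from a low level. WT XEN also lay above KO ESC (1.89 ± 0.40, adjusted p = 0.00384).

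Tnfrsf10b, the mouse receptor of the death ligand TRAIL, was at 39.5, 39.3 and 40.7 CPM in KO ESC, 68.1 and 57.3 CPM in WT XEN, and 200 and 139 CPM in KO XEN (chr14:69767472-69784411, plus strand). It rose in the same 3 steps as Fas. The log2 fold change was 1.44 ± 0.20 in KO XEN against WT XEN (adjusted p = 0.00102) and 2.09 ± 0.18 against KO ESC (adjusted p = 2.57e-05). WT XEN against KO ESC gave 0.65 ± 0.18 (adjusted p = 0.0128), which was lost without WT XEN A (0.56, adjusted p = 0.0535).

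Perp, a membrane protein of desmosomes that can promote cell death, had the largest increase of the 32 genes in KO XEN against WT XEN (chr10:18845020-18857073, plus strand). It stood at 20.8, 35.9 and 48.2 CPM in KO ESC, 35.3 and 12.3 CPM in WT XEN, and 355 and 171 CPM in KO XEN. The libraries within each group were spread widely, yet KO XEN lay far above both other groups, which overlapped. The log2 fold change was 3.46 ± 0.62 against WT XEN (adjusted p = 0.00296) and 2.91 ± 0.52 against KO ESC (adjusted p = 0.00133).

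Pidd1, the scaffold of the complex that activates caspase-2, was at 27.9, 33.6 and 34.0 CPM in KO ESC, 28.6 and 23.1 CPM in WT XEN, and 91.5 and 77.5 CPM in KO XEN (chr7:141438113-141444025, minus strand). Only the KO XEN libraries stood apart. KO XEN was 3.27-fold higher than WT XEN (log2 fold change 1.71 ± 0.20, with adjusted p = 0.000472) and 2.65-fold higher than KO ESC (1.41 ± 0.17, adjusted p = 0.000165). The KO XEN calls of Tnfrsf10b, Perp and Pidd1 in both comparisons held in all 17 alternatives, and those of Fas in the 16 that tested it.

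Aen, a nuclease that promotes apoptosis, and Ei24, a membrane protein of the endoplasmic reticulum with a part in autophagy, were both called higher in KO XEN than in WT XEN. Aen stood at 77.2, 102 and 97.2 CPM in KO ESC, 75.3 and 45.8 CPM in WT XEN, and 189 and 136 CPM in KO XEN. Ei24 stood at 296, 306 and 298 CPM in KO ESC, 142 and 138 CPM in WT XEN, and 332 and 261 CPM in KO XEN. For Aen the 3 groups did not overlap, and for Ei24 the KO XEN libraries lay on both sides of KO ESC. In KO XEN against WT XEN the log2 fold change was 1.42 ± 0.28 for Aen (adjusted p = 0.00438) and 1.08 ± 0.16 for Ei24 (adjusted p = 0.00125), and both held in all alternatives. Ei24 was lower in WT XEN than in KO ESC (−1.10 ± 0.15, adjusted p = 0.000402). Aen was higher in KO XEN than in KO ESC (0.82 ± 0.25, adjusted p = 0.0173), but not without KO XEN C4 (0.57, adjusted p = 0.143), KO ESC C4 (0.61, adjusted p = 0.0722) or KO ESC 5-3_2 (0.77, adjusted p = 0.0561). Aen in WT XEN against KO ESC was not called (−0.61 ± 0.25, adjusted p = 0.0664), but passed without WT XEN A (−0.97, adjusted p = 0.0158) or KO ESC C4 (−0.74, adjusted p = 0.0437).

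Apaf1, the core of the apoptosome that activates caspase-9, was high in both differentiated groups. Its level was 76.4, 43.0 and 48.8 CPM in KO ESC, 198 and 200 CPM in WT XEN, and 211 and 171 CPM in KO XEN. KO XEN and WT XEN overlapped, and all their libraries lay above KO ESC. Against KO ESC the log2 fold change was 1.77 ± 0.24 in KO XEN (adjusted p = 0.00032) and 1.83 ± 0.24 in WT XEN (adjusted p = 0.000368), and between the XEN groups it was −0.06 ± 0.27 (adjusted p = 0.885).

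Dram1, a lysosomal membrane protein of autophagy, had the largest difference of the 32 and went against the majority (chr10:88322804-88379080, minus strand). It stood at 0.600, 2.02 and 2.10 CPM in KO ESC, 128 and 79.96 CPM in WT XEN, and 2.69 and 7.45 CPM in KO XEN. WT XEN alone was high, and KO XEN lay just above KO ESC. Dram1 was 19.9-fold lower in KO XEN than WT XEN (log2 fold change −4.31 ± 0.65, with adjusted p = 0.0014) and 65.8-fold higher in WT XEN than in KO ESC (6.04 ± 0.59, adjusted p = 8.27e-05). Its increase from KO ESC to KO XEN (1.73 ± 0.56, adjusted p = 0.0234) was lost without KO XEN 5-3 (0.68, adjusted p = 0.436). The direction of Dram1 is that of the endoderm markers, which summed to less CPM in KO XEN than in WT XEN, and their part in it was not tested.

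The remaining members of the group, Eda2r, a receptor of the tumour necrosis factor family, and Trp53inp1, which aids p53 phosphorylation and autophagy, were called in none of the comparisons. Eda2r ran from 88.7 to 160 CPM and Trp53inp1 from 233 to 420 CPM over the 7 libraries. Eda2r was called higher in KO XEN than in KO ESC in 2 of 17 alternatives, among them without KO ESC C4 (0.59, adjusted p = 0.0124, against 0.44, adjusted p = 0.101, with it).

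The 5 genes of DNA repair and nucleotide supply were divided, with 1 higher and 2 lower in KO XEN than WT XEN, beside 22.3% and 23.9% of all genes. Xpc, which finds damage for nucleotide excision repair, stood at 31.9, 27.2 and 27.1 CPM in KO ESC, 20.3 and 18.9 CPM in WT XEN, and 47.8 and 36.3 CPM in KO XEN. Ddb2, which recognises UV damage for the same pathway, stood at 11.5, 10.4 and 10.9 CPM in KO ESC, 17.1 and 24.6 CPM in WT XEN, and 4.501 and 8.31 CPM in KO XEN. The order of the groups was thus reversed between these partners: KO XEN was the high group for Xpc and the low one for Ddb2, without overlap. In KO XEN against WT XEN the log2 fold change was 1.10 ± 0.20 for Xpc (adjusted p = 0.00327) and −1.68 ± 0.33 for Ddb2 (adjusted p = 0.00452).

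Against KO ESC these genes were less firm. Xpc was higher in KO XEN (0.55 ± 0.18, adjusted p = 0.0246), but not without KO XEN C4 (0.34, adjusted p = 0.207), KO ESC 5-3_1 (0.47, adjusted p = 0.0904) or KO ESC 5-3_2 (0.42, adjusted p = 0.134). It was lower in WT XEN (−0.55 ± 0.18, adjusted p = 0.0296), which was lost without any 1 of WT XEN A, WT XEN B, KO ESC 5-3_1 and KO ESC 5-3_2 (−0.61 to −0.49, with the largest adjusted p = 0.126 without WT XEN B). Ddb2 was higher in WT XEN than in KO ESC (0.93 ± 0.29, adjusted p = 0.0215), but not without WT XEN B (0.65, adjusted p = 0.157), KO ESC 5-3_1 (0.90, adjusted p = 0.0701) or KO ESC 5-3_2 (0.91, adjusted p = 0.0622). In KO XEN against KO ESC Ddb2 had a log2 fold change of −0.75 ± 0.30 (adjusted p = 0.0544), and it was called lower in 6 of the 17 alternatives: with RLE scaling (adjusted p = 0.0491), total-count scaling (0.0329), upper-quartile scaling (0.0287), DESeq2 (0.0298), the filter of 10 CPM (0.0465) and without KO XEN 5-3 (−1.35, adjusted p = 0.0121).

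Polk, a polymerase that copies past DNA lesions, was at 32.3, 22.5 and 27.9 CPM in KO ESC, 62.1 and 94.3 CPM in WT XEN, and 38.1 and 30.1 CPM in KO XEN. WT XEN was high and the others overlapped. Polk was lower in KO XEN than WT XEN (log2 fold change −1.20 ± 0.26, with adjusted p = 0.00753) and higher in WT XEN than in KO ESC (1.5 ± 0.23, adjusted p = 0.000842), and both calls held in all alternatives.

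Ercc5, the XPG endonuclease of excision repair, stood at 38.5, 36.5 and 38.4 CPM in KO ESC, 62.4 and 67.8 CPM in WT XEN, and 80.5 and 46.9 CPM in KO XEN. All XEN libraries lay above KO ESC, and the KO XEN libraries lay on both sides of WT XEN. Ercc5 was higher in WT XEN than in KO ESC (log2 fold change 0.79 ± 0.22, adjusted p = 0.014), though not without WT XEN B (0.73, adjusted p = 0.0666). It was higher in KO XEN than in KO ESC (0.75 ± 0.22, adjusted p = 0.0153), though not without KO XEN C4 (0.32, adjusted p = 0.178) or KO ESC 5-3_2 (0.67, adjusted p = 0.0619). Rrm2b, the p53-induced subunit of ribonucleotide reductase, ran from 7.64 to 12.5 CPM and was not called. It was called lower in WT XEN than in KO ESC in 2 of 17 alternatives, among them without KO ESC C4 (−0.56, adjusted p = 0.0442, against −0.43, adjusted p = 0.123).

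The 3 metabolic genes did not move together in KO XEN against WT XEN. Against KO ESC all 3 had a negative log2 fold change in both XEN groups, though not all were called. Tigar, a phosphatase that slows glycolysis, stood at 81.4, 81.5 and 88.9 CPM in KO ESC, 49.0 and 29.0 CPM in WT XEN, and 22.2 and 16.4 CPM in KO XEN (chr6:127085116-127109557, minus strand). The groups fell in 3 steps without overlap. Tigar was lower in KO XEN than in KO ESC (log2 fold change −2.13 ± 0.26, adjusted p = 0.000173) and than in WT XEN (−1.02 ± 0.27, adjusted p = 0.0155), the latter not without KO XEN 5-3 (−0.90, adjusted p = 0.0855). WT XEN was lower than KO ESC (−1.11 ± 0.25, adjusted p = 0.00511).

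Pmm1, a phosphomannomutase, was at 118, 248 and 242 CPM in KO ESC, 38.1 and 28.0 CPM in WT XEN, and 209 and 129 CPM in KO XEN (chr15:81951108-81960930, minus strand). WT XEN alone was low. KO XEN was 5.12-fold higher than WT XEN (log2 fold change 2.36 ± 0.40, with adjusted p = 0.00242), and WT XEN 6.14-fold lower than KO ESC (adjusted p = 0.000652). Pmm1 was not called in KO XEN against KO ESC, but was called lower there in 1 of 17 alternatives. Fdxr, a mitochondrial reductase that feeds electrons to ferredoxin, ran from 5.59 to 11.6 CPM and was not called in any comparison; without KO XEN 5-3 it was lower in KO XEN than in KO ESC (−1.03, adjusted p = 0.0423, against −0.45, adjusted p = 0.224).

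Divided by exon length, the levels of different genes can be set side by side, though only roughly. The length is that of all annotated exons of a gene merged, which can exceed that of the transcript made. In KO ESC the group means were highest for Ccng1 (133 CPM per kb), Trp53 (94.96), Pmm1 (70.7) and Ei24 (61.6), and lowest for Fas (0.305 CPM per kb) and Dram1 (0.517). In WT XEN they were highest for Ccng1 (166 CPM per kb), Btg2 (73.6) and Phlda3 (48.7), with Dram1 sixth (34.2), and lowest for Rrm2b (0.915). In KO XEN, Btg2 came first (187 CPM per kb), then Ccng1 (154), Phlda3 (135), Perp (135), Plk2 (113) and Mdm2 (68.8). Ccng1 was thus abundant in all groups. Btg2, Ccng1, Phlda3 and Plk2, listed in the loose group of brakes, took 4 of the first 5 places in KO XEN. The first 3 places in WT XEN were likewise those of Ccng1, Btg2 and Phlda3.

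The change with differentiation could be followed within each knockout line. It was tested as the difference between C4 and 5-3 in the change from ESC to XEN, with 2 residual degrees of freedom. By edgeR's quasi-likelihood test 0 of 18426 genes passed (0%), with 1844 at an unadjusted p below 0.05, and by limma-voom 0, with 1690. Within the 32, 5 genes were at an unadjusted p below 0.05 by either tool. On the scale of log2(CPM + 0.5), XEN minus ESC was 1.51 in C4 and 0.51 in 5-3 for Mdm2, and the fitted difference was 1.01 ± 0.22 (unadjusted p = 0.00597, adjusted p = 0.368). For Pmm1 it was 0.82 in C4 and −0.92 in 5-3 (fitted difference 1.75 ± 0.34, unadjusted p = 0.00345, adjusted p = 0.314). The other three, again as C4 then 5-3, are Gadd45a (0.07 and −0.96), Trp53inp1 (−0.85 and 0.01) and Ercc5 (1.05 and 0.32).

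For most of the 32 genes XEN minus ESC had the same sign in both lines, and for 6 the signs were opposite: Gadd45a, Zfp365, Trp53inp1, Ei24, Rrm2b and Pmm1. Of these, Zfp365 was at 0.70 in C4 and −0.71 in 5-3, whereas Ei24 (0.17 and −0.21) and Rrm2b (0.09 and −0.25) were close to 0 in both. The increases of Btg2 (3.73 and 3.45), Plk2 (3.48 and 3.13), Phlda3 (3.31 and 2.61), Fas (3.76 and 3.03) and Tnfrsf10b (2.33 and 1.79) and the decreases of Mdm4 (−3.15 and −2.45) and Tigar (−1.85 and −2.34) were present in both. For each of these genes both KO XEN libraries lay on the same side of all KO ESC libraries. Equal signs follow from that and are no separate result. The share of all genes with opposite signs was not computed. For Perp XEN minus ESC was 4.06 in C4 and 2.03 in 5-3. C4 has 1 library in each state, so that its differences carry no spread of their own, and 5-3 has 1 library in the XEN state. The spread behind the fitted line differences thus comes only from the KO ESC 5-3 and the WT XEN libraries, and none of it from KO XEN.

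**Figure D4:**
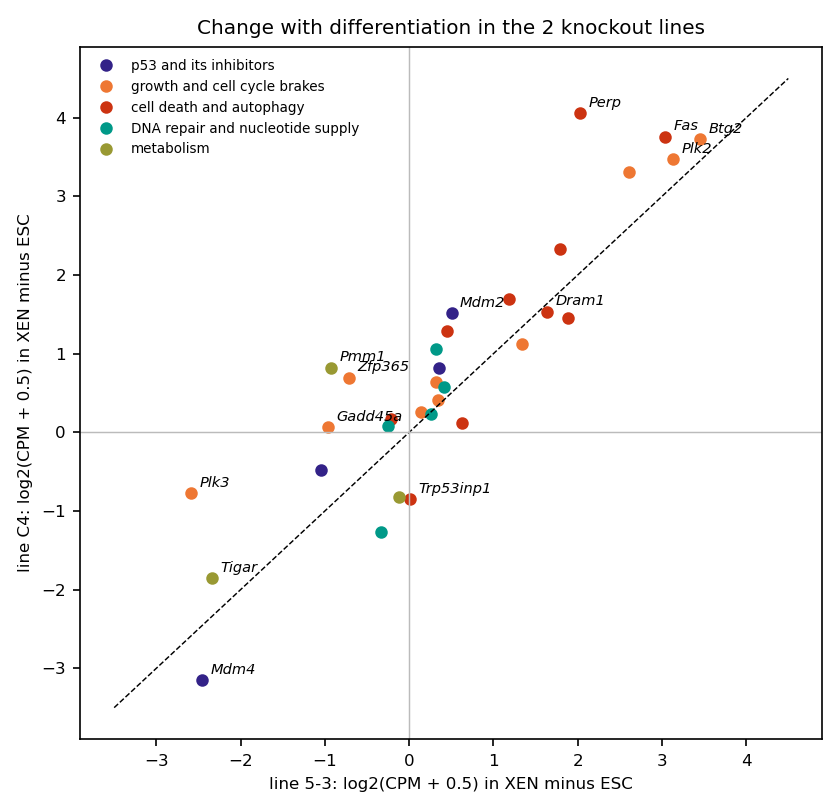
Change in log2(CPM + 0.5) from ESC to XEN in line 5-3 (horizontal; ESC value, mean of 2 libraries) and in line C4 (vertical) for the 32 genes, coloured by role; the dashed line marks equal change. Btg2, Plk2 and Fas lie at the upper right and Mdm4 and Tigar at the lower left, and Pmm1 and Zfp365 are above 0 in C4 and below 0 in 5-3.

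Other genes of the pathway, listed separately and also with earlier results of these data known, were read in the same way. Of 30 other p53 targets, 18 were called higher and 1 lower in KO XEN against WT XEN (median log2 fold change 1.29), beside 22.3% and 23.9% of all genes. Against KO ESC, 21 in KO XEN were higher and 3 lower (1.03), beside 34.8% and 34.3%, and in WT XEN against KO ESC 9 were higher and 10 lower (0.27), beside 32.2% and 30.3%. Cdkn1a, which encodes the cyclin-dependent kinase inhibitor p21, stood at 48.3, 53.1 and 48.5 CPM in KO ESC, 199 and 123 CPM in WT XEN, and 1039 and 845 CPM in KO XEN. Its groups formed the 3 steps seen for Btg2, Plk2 and Phlda3, with a log2 fold change of 2.55 ± 0.25 in KO XEN against WT XEN (adjusted p = 0.000279) and 4.24 ± 0.23 against KO ESC (adjusted p = 3.26e-06). Of the death genes that act at the mitochondrion, Bbc3 (Puma) was higher in KO XEN than in WT XEN (1.90 ± 0.25, adjusted p = 0.000799), as was Bax (0.97 ± 0.16, adjusted p = 0.00224), and Pmaip1 (Noxa) was not called (−0.18 ± 0.23, adjusted p = 0.546). By adjusted p, the lipid hydrolase Abhd4 (1.76 ± 0.14), the nuclear body protein Pml (2.04 ± 0.18) and the adenylate kinase Ak1 (3.99 ± 0.40) came first beside Cdkn1a. Gls2, a mitochondrial glutaminase, was the only one of the 30 called lower in that comparison (−2.50 ± 0.26, adjusted p = 0.000358).

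The 19 genes listed as upstream regulators include activators and inhibitors of p53, and its relatives Trp63 and Trp73. Their counts thus give no direction of input to p53. Of these 19, 5 were called higher and 8 lower in KO XEN against WT XEN (median log2 fold change −0.11). Beside them stand 22.3% and 23.9% of all genes, so that the count of higher genes is near the background. With KO ESC as the reference, 3 in KO XEN were higher and 11 lower (−0.95), beside 34.8% and 34.3%, and in WT XEN against KO ESC 2 were higher and 10 lower (−0.45), beside 32.2% and 30.3%. Cdkn2a, whose p19Arf product restrains Mdm2, was at 0.600, 1.01 and 0.841 CPM in KO ESC, 41.9 and 15.7 CPM in WT XEN, and 207 and 235 CPM in KO XEN. The groups did not overlap, and the log2 fold change was 2.94 ± 0.43 in KO XEN against WT XEN (adjusted p = 0.00122) and 8.07 ± 0.47 against KO ESC (adjusted p = 4.49e-06). The counts do not separate p19Arf from p16Ink4a, which comes from the same gene. The damage kinases went the other way: in KO XEN against WT XEN the log2 fold change was −2.79 ± 0.23 for Chek1, −2.39 ± 0.33 for Prkdc and −1.33 ± 0.20 for Chek2, all with an adjusted p of 0.00125 or less.

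Of 15 cell cycle genes that p53 is known to lower through p21 and the DREAM repressor complex, 14 were called lower and 0 higher in KO XEN against WT XEN (median log2 fold change −1.69), where 23.9% of all genes were called lower. The gene not called there was Cdk1 (−0.27 ± 0.32, adjusted p = 0.524), a kinase that drives entry into mitosis. Against KO ESC all 15 were called lower in KO XEN (−2.48), beside 34.3% of all genes, and 9 lower and 0 higher in WT XEN (−0.50), beside 30.3% called lower and 32.2% higher. Their summed level was 3050 to 3119 CPM in KO ESC, 1481 and 1658 CPM in WT XEN, and 552 and 496 CPM in KO XEN, in the opposite order to Cdkn1a. Mybl2, a transcription factor of dividing cells, was at 410, 391 and 339 CPM in KO ESC, 75.6 and 104 CPM in WT XEN, and 9.87 and 9.97 CPM in KO XEN. Chek1 is in this list and in that of the upstream regulators. They are also general markers of dividing cells, and the part of p53 in their levels was not tested.

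**Figure D5:**
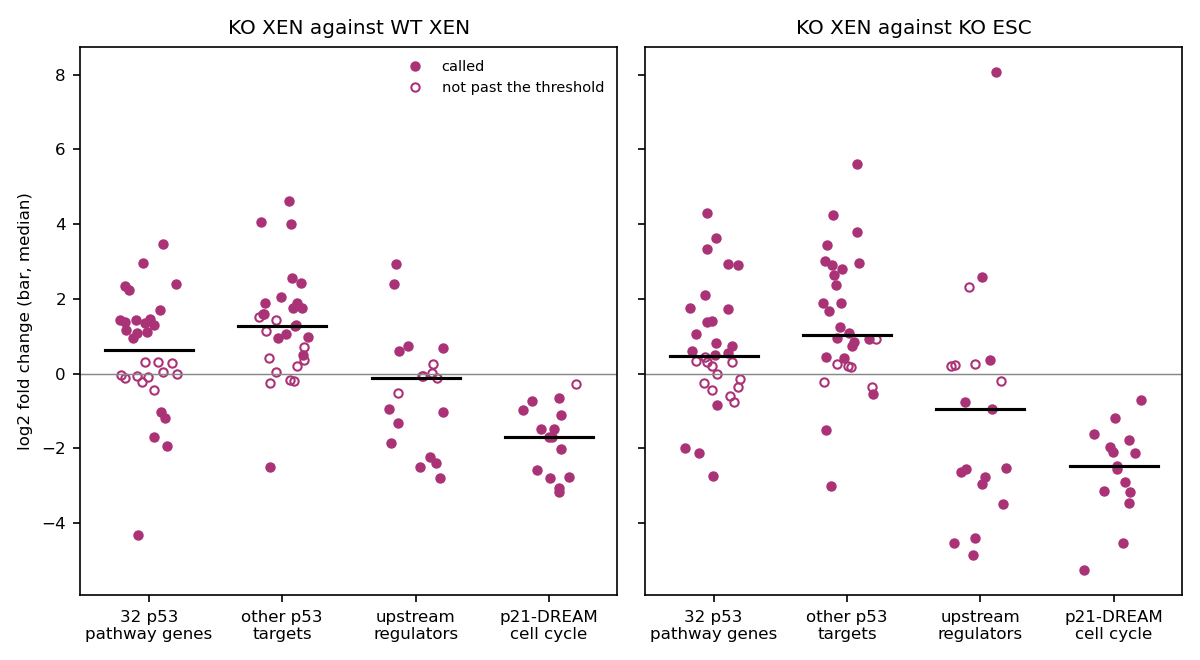
Log2 fold change of each gene of 4 lists in KO XEN against WT XEN (left) and KO XEN against KO ESC (right); filled points were called, open points were not, and bars are list medians. The medians in the left panel are 0.63 for the 32 p53 pathway genes, 1.29 for the 30 other targets, −0.11 for the 19 upstream regulators and −1.69 for the 15 cell cycle genes.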

How the data were processed

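The authors deposited a table of whole-number read counts, not normalised, with a row for each Ensembl gene and a column for each of 7 libraries; per the submitters' processing notes, the authors aligned reads to mm10 with STAR 2.4.2a and counted them with featureCounts 1.4.5-p1. The annotation release and strand setting are not given in the sources used here. Symbols and positions come from GENCODE M21 (GRCm38), which named 42462 of the 43629 IDs. Libraries were grouped by their titles.

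All 7 libraries entered 1 edgeR 4.0.16 quasi-likelihood fit in R 4.3.3 with 3 groups, TMM scaling and filterByExpr, which set aside 25203 genes (4 residual degrees of freedom, common biological coefficient of variation 0.268). The alternatives used DESeq2 1.42.0, limma-voom (limma 3.58.1), other scalings, other filters, fewer libraries and line as a block. Knockout libraries pair by labelled line; across 18426 genes the difference C4 minus 5-3 had r = 0.0634 between the ES and XEN states. No 2 libraries of a group were duplicates (chi-square per degree of freedom 21.1 to 103). The pipeline was tested on simulated counts.

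The 32 genes, the other lists and the tests were chosen with earlier results of these data known. Genes given library by library are at least Trp53, Mdm2 and Mdm4, and per comparison up to 12 called genes by adjusted p, those against the majority direction and the extremes; other lists give Cdkn1a, Bax, Bbc3, Pmaip1 and up to 4 genes each. Gls2 was named after its values were seen.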

Additional observations from a re-analysis of the deposited data

How the results depend on the processing

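There were 17 alternatives, of which 16 tested Fas. In KO XEN against WT XEN, 17 of the 21 called p53 pathway genes stayed called in every alternative that tested them. The other 4 were lost in some (Ddit4, Mdm2, Tigar, Zfp365). In KO XEN against KO ESC 11 of 20 stayed, and in WT XEN against KO ESC 12 of 20. Leaving out each library in turn gave 13 to 16 higher and 4 to 6 lower in KO XEN against WT XEN. The same gave 10 to 16 higher and 3 to 5 lower in KO XEN against KO ESC, with 10 without KO XEN C4. In WT XEN against KO ESC it gave 9 to 11 higher and 5 to 11 lower, with 5 without WT XEN B, and a median log2 fold change of −0.19 to 0.021, which was above 0 only without that library; the cause was not tested. Without both C4 libraries the counts were 14 higher and 6 lower, 12 and 6, and 12 and 9, in the order of these comparisons. With knockout line as a replicate block they were 16 and 5, 16 and 4, and 11 and 9, so that the pairing changed no count. Upper-quartile scaling shifted the median of all genes by −0.12 in KO XEN against KO ESC and by −0.17 in WT XEN against KO ESC, and gave 14 higher and 6 lower, and 11 and 11. The interaction of line and differentiation gave 0 calls by both tools. The full p53 element was found in the windows of 6 of 25 genes with 3 mismatches allowed and of 0 with none, which follows from the looser and stricter match. The tests rest on 2 or 3 libraries a group. KO XEN C4 was the shallowest library (13941826 counts), and Fas and Dram1 in KO ESC rest on the lowest levels, 0.520 to 2.10 CPM.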
